A study of Mus musculus with 7 samples.

Results

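Chromatin accessibility was examined at 7 genes of the Notch pathway and of the endocrine progenitor program, namely the ligand gene *Dll1*, the receptor genes *Notch1* and *Notch2*, the target gene *Hes1*, and the progenitor factor genes *Neurog3*, *Sox9*, and *Sox4*. A peak was assigned to a gene when its interval overlapped the GENCODE gene body extended by 20 kb on each side on the mouse build GRCm38 (mm10). Together these windows span 500.534 kb and held 352 of the 1190565 peaks of the series, so each gene is described by the peaks of its locus in every library. The data are ATAC-Seq peak lists, which mark where the Tn5 transposase found open DNA, from FACS-sorted alpha cells (2 replicates), beta cells (3 replicates), and delta cells (2 replicates) of healthy mice. All animals carried mIns1-H2b-mCherry and Rosa-LSL-YFP together with either Sst-Cre or Gcg-Cre, so mCherry in the nucleus marks beta cells and YFP marks the cells in which the Cre was ever active. Mice were pooled by sex for each sample, and the study took the cell types from the same animals, so libraries can share animals. Which libraries do is not in the labels. No untreated or mutant group exists, and neither an age nor an inbred strain is given in the labels.

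The Notch pathway works between neighbouring cells. A Delta or Jagged ligand on a cell engages a Notch receptor on the next, the receptor is cut by ADAM proteases and gamma-secretase, and its intracellular part joins Rbpj and Mastermind proteins to switch on genes such as *Hes1*. In the embryonic pancreas Hes1 represses *Neurog3*, the transient master regulator of the endocrine lineage, while Sox9 marks the progenitor pool and later the ducts, and Sox4 acts downstream in endocrine differentiation.

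The lists differ greatly in length, which bears on every count given here. Alpha 1 and alpha 2 listed 131151 and 111961 peaks, of which 37 and 47 lay in the member loci. The beta lists held 518503, 91089, and 103935 peaks, with 94, 27, and 36 in these loci, and the delta lists held 158066 and 75860, with 66 and 45. Beta 1 stands apart. Only 5.0% of its list reached a −log10 q of 2, against 29.8% to 54.9% of the other lists, and 67 of its 94 member peaks had a fold enrichment below 2, which no member peak of another library had. Counts over regions are therefore also given without it. Without beta 1 the loci had 14 regions called in at least 2 libraries at *Notch2*, 8 each at *Hes1* and *Dll1*, 7 at *Notch1*, 6 at *Sox4*, 1 at *Neurog3*, and 0 at *Sox9*. The lists do not give the read depth behind a peak, and an absent peak was not detected rather than shown to be closed. In sorted bulk samples, fewer open cells and less open chromatin per cell cannot be told apart.

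The beta lists were deposited under names that carry another cell type than their labels, and the alpha and delta lists under names with other replicate numbers than their labels. The labels were used throughout. Of the alpha markers *Gcg*, *Irx1*, and *Irx2*, all 3 had a peak within 1 kb of the annotated 5′ end in both alpha lists, while beta 1, 2, and 3 had 1, 1, and 2 of them and delta 1 and 2 had 2 and 3. Of the delta markers *Sst*, *Hhex*, *Ghsr*, and *Rbp4*, all 4 were called in both delta lists, 3 in each alpha list, 3 in beta 1, and 0 in beta 2 and beta 3. The hormone gene *Sst* went against this order, with its highest fold enrichment, 3.57, and its only −log10 q above 2 in beta 1, against 2.91 and 2.90 in delta 1 and 2. By number of calls the 6 beta markers did not separate the cell types in this way, with 3 called in every library except beta 3, which had 4. *Ins1*, *Mafa*, and *Nkx6-1* were called in all 7 libraries, *Ins2* in beta 3 alone, and *Slc2a2* and *G6pc2* in none at this annotated end. By height, *Ins1* was strongest in beta 1 and beta 3, at 7.03 and 5.96, with 3.39 in beta 2 and 2.75 to 4.46 in the alpha and delta lists. *Mafa* ran the other way, with 7.97, 7.50, and 9.28 in beta 1, 2, and 3. It had 11.4 and 14.6 in alpha and 13.0 in both delta lists. The heights of *Nkx6-1* overlapped between the cell types. At another transcript start *G6pc2* had 6.96, 6.33, and 6.40 in beta 1, 2, and 3, above the 3.25 of alpha 2 and the 4.23 and 3.13 of delta 1 and 2, and no peak in alpha 1. With every start counted, *Slc2a2* and *Ins2* did not separate the cell types. *Slc2a2* had 3.62 and 11.6 in alpha, 3.13, 7.75, and 10.7 in beta, and 7.95 and 4.69 in delta lists. *Ins2* had 2.63 in beta 1, 3.21 in beta 3, and 3.36 in delta 2. Start sites therefore set beta 2 and beta 3 apart by the delta markers that they lacked.

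The start-site sequences are shown first because the results turn on which of these promoters was open. For 5 of the 7 members the RefSeq promoter table (GRCm38.p6) has an entry, and *Hes1* and *Sox9* have none there. Each run is the 250 bases before a RefSeq start, 5′ to 3′ on the strand of the gene. Capitals mark matches, on either strand, to TGGGAA (the core that Rbpj binds), CACNAG (the N-box bound by Hes proteins), TGTTTAC (a forkhead core), or CAGATG (an E-box of the kind bound by neurogenic bHLH factors). No matches overlapped each other.

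Notch1, chr2:26503823-26504072, minus strand: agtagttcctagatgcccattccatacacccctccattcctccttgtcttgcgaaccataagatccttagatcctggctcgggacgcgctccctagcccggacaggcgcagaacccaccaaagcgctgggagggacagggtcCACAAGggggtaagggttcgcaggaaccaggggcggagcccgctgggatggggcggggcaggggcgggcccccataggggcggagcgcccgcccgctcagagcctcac

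Notch2, chr3:98013288-98013537, plus strand: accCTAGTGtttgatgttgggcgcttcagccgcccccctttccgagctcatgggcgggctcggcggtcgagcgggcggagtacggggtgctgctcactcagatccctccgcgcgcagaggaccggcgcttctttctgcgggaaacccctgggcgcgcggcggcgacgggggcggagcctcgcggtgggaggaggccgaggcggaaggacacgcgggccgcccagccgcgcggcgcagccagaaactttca

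Dll1, chr17:15376933-15377182, minus strand: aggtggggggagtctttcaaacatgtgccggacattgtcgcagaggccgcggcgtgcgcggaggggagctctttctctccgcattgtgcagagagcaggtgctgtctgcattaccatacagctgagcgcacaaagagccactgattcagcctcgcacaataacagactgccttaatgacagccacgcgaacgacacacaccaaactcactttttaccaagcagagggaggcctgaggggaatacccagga

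Neurog3, chr10:62132840-62133089, plus strand: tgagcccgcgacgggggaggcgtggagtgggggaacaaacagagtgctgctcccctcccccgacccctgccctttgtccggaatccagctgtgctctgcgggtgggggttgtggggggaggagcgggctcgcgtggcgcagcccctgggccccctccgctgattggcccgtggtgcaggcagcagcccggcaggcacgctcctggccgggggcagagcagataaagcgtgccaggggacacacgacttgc

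Sox4, chr13:28953700-28953949, minus strand: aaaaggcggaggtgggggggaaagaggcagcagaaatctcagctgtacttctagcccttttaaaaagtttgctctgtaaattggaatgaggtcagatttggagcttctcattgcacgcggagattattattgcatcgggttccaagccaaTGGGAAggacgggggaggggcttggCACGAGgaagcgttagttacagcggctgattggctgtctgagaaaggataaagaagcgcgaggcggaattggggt

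The *Sox4* promoter holds TGGGAA 100 bases and an N-box 75 bases before the start, and the *Notch1* and *Notch2* promoters hold an N-box each. The *Dll1* and *Neurog3* windows hold no match to the 4 motifs. Of all 32841 promoter windows of this length, 21.6% hold TGGGAA, 36.7% CACNAG, 3.17% TGTTTAC, and 14.4% CAGATG, so a single match is common. GC content was 72.0% for *Notch2*, 71.2% for *Neurog3*, 66.0% for *Notch1*, 56.0% for *Dll1*, and 50.8% for *Sox4*, against a median of 52.4%. A second *Dll1* window, before the inner RefSeq start at 15375823, had 64.0% and is not printed because it overlaps an annotated UTR. The *Neurog3* and *Notch2* promoters thus had a similar GC content, although peaks were called at the 2 promoters in very different numbers of libraries.

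At the 5′ end of the gene, 4 members (*Dll1*, *Notch2*, *Hes1*, and *Sox4*) had a peak within 1 kb in all 7 libraries, as did 41.5% of the 21911 protein-coding genes. The same 4 were open in each cell type by the rule of at least 2 replicates, where the share of all genes was 56.8% for alpha, 56.1% for beta, and 54.1% for delta cells. No member was called in one cell type and absent from another by this measure. *Hes1* and *Notch2* passed a −log10 q of 2 in all 7 libraries, against 31.1% of all genes, *Sox4* in 6, and *Dll1* in 4. Only *Notch1* had no peak at its annotated end in any library, as did 17.3% of all genes.

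**Figure D1:**
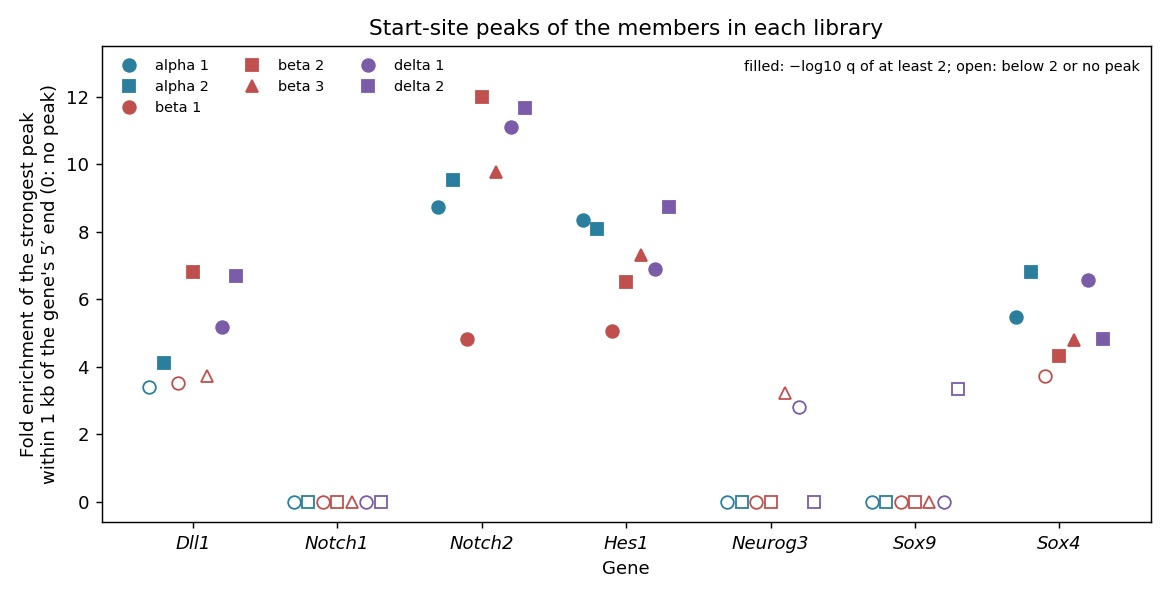
Fold enrichment (linear axis) of the strongest peak in the 1 kb on either side of the annotated 5′ end of each member, with 1 point per library, colour for cell type and shape for replicate; points at 0 are libraries with no peak, and filled points have a −log10 q of at least 2. *Notch2*, *Hes1*, *Sox4*, and *Dll1* are above 3 in all 7 libraries, *Neurog3* and *Sox9* have open points in 2 and 1 libraries, and *Notch1* has none at its annotated end.

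*Dll1* (ENSMUSG00000014773.13, chr17:15367354-15376872, minus strand) encodes a transmembrane Notch ligand. Its strongest start-site peak had a fold enrichment of 3.40 and 4.10 in alpha 1 and 2, 3.53, 6.82, and 3.72 in beta 1, 2, and 3, and 5.19 and 6.70 in delta 1 and 2. The delta values lay above both alpha values, and the beta values overlapped both. The position of the strongest peak differed more than its height did. Its summit lay 163 to 239 bases upstream of the 5′ end in the 3 beta lists and 588 to 997 bases inside the gene in the alpha and delta lists. Coding transcripts start here at 15376872 and at 15375976, and all 7 libraries had a peak within 1 kb of each. The upstream region (chr17:15376764-15377244) was called in every library except alpha 1, and the inner region (chr17:15375683-15376589) in every library except beta 1 and beta 3, so the pattern is not a clean division by cell type.

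The *Dll1* locus had 9 regions called in at least 2 libraries, 3 of them at its own starts, where a region is the union of peaks that overlap by at least 1 bp across lists. A region 19.9 to 20.4 kb from the 5′ end, beyond the 3′ end of the gene (chr17:15356521-15356963), was called in 6 libraries and reached a fold enrichment of 8.75 in alpha 2. The region at 12.6 to 13.0 kb upstream (chr17:15389443-15389834) was called in delta 1 and 2, at 3.58 and 3.36, and in no alpha list. Beta 1 had a peak there of 1.80. The only region of this locus called in all 7 libraries sits at the start of the neighbouring gene *Fam120b*, with a fold enrichment of 8.45 to 17.5, and belongs to *Dll1* by the window alone.

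*Notch1* (ENSMUSG00000026923.15, chr2:26457903-26516663, minus strand) encodes a receptor of the pathway. Its annotated 5′ end comes from the transcript Notch1-206 and had no peak within 1 kb. The coding transcript Notch1-201 starts further inside the gene, at 26503822, which is the RefSeq start of the printed promoter. Within 1 kb of that start a peak was called in 5 of 7 libraries, with a fold enrichment of 5.0 and 5.1 in alpha 1 and 2, 1.79 in beta 1, 3.21 in beta 3, and 4.26 in delta 1. Beta 2 and delta 2 had none, so this start was open in both alpha lists and in a part of the beta and delta lists. Even with the Notch1-201 start counted, *Notch1* was the weaker of the 2 receptor promoters in each library that had both peaks.

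Inside *Notch1*, an exonic region 15.5 to 15.9 kb from the annotated end (chr2:26500760-26501198) was called in 5 libraries, each past a −log10 q of 2, and missed in alpha 1 and beta 3. An intronic region 34.3 to 34.6 kb inside (chr2:26482086-26482406) was also called in 5 libraries, with the highest fold enrichment, 6.45, in delta 1. Upstream of the gene, chr2:26525705-26526045 was called in alpha 1 and 2, at 3.0 and 3.67 and in delta 1 at 5.02, whereas the beta lists had no peak. As for *Dll1*, the region called in all 7 libraries was at the start of a neighbour, *Sec16a*.

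*Notch2* (ENSMUSG00000027878.11, chr3:98013527-98150361, plus strand) encodes the receptor with the strongest start-site peak among the members in every library except beta 1, where *Hes1* was higher. The fold enrichment was 8.72 and 9.52 in alpha 1 and 2, 4.84, 12.0, and 9.76 in beta 1, 2, and 3, and 11.1 and 11.7 in delta 1 and 2. Without beta 1 the range was 8.72 to 12.0, and the delta values lay within the span of the remaining beta values. All summits fell 57 to 130 bases upstream of the 5′ end.

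In parts of the introns of *Notch2*, delta and alpha lists had peaks that the beta lists lacked. Of the 18 regions of the locus called in at least 2 libraries, 15 were intronic (12 of 14 without beta 1). Alpha cells had 5 open regions, beta cells 4, and delta cells 9, where the open share of all such regions of the genome was 34%, 42.1%, and 33.6%. Both delta lists and no beta list had a peak at 4 of the intronic regions. An intronic region 52.9 to 53.2 kb inside was called in delta 1 and 2 alone, with a fold enrichment of 4.05 and 4.20. A second delta-only region, 76.3 to 76.7 kb inside, reached 8.0 and 4.84. The remaining pair was shared with alpha cells. At 81.6 to 82.0 kb the fold enrichment was 2.94 and 7.05 in alpha and 5.48 and 3.28 in delta 1 and 2. At 93.1 to 93.5 kb it was 5.33 and 8.79 in alpha and 3.58 and 3.28 in delta lists. The −log10 q was below 2 in alpha 1 and delta 2 at the former and in both delta lists at the latter. Other intronic regions were called in all 3 beta lists. At 32.2 to 32.6 kb these had 3.61, 3.39, and 3.85, with 4.40 in alpha 2 and 3.58 in delta 1. At 61.7 to 62.2 kb they had 3.61, 3.39, and 5.47, with 2.93 in alpha 2 and 4.86 and 5.04 in delta 1 and 2.

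The sequences of the 4 regions called in both delta lists and in no beta list are shown because they carry the contrast with beta cells. That contrast rests on calls of any −log10 q. Each run is the 200 bases around the highest summit, 5′ to 3′ on the plus strand of GRCm38.p6, with capitals for the same motifs as above.

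Notch2 intron, delta, chr3:98066513-98066712: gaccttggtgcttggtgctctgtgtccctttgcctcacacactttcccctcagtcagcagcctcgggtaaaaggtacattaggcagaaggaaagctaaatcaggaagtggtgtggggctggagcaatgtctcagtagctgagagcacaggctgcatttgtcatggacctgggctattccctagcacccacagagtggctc

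Notch2 intron, delta, chr3:98089958-98090157: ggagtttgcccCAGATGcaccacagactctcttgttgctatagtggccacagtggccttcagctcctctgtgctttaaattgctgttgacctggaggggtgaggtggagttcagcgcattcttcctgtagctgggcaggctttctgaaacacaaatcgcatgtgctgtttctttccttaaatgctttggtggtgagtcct

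Notch2 intron, alpha and delta, chr3:98095151-98095350: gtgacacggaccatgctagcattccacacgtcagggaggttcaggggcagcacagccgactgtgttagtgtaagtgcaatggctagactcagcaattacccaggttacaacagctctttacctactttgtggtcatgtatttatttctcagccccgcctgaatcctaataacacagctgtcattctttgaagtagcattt

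Notch2 intron, alpha and delta, chr3:98106746-98106945: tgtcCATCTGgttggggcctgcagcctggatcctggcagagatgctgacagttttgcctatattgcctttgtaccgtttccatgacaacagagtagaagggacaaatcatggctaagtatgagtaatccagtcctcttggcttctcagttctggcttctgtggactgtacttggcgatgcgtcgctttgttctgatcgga

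An E-box was found in 1 delta region and in 1 region shared by alpha and delta cells, and none of the other 3 motifs occurred in these windows. Of all 133685 windows of this length at regions called in at least 2 libraries, 18.3% hold this E-box, 16.6% TGGGAA, 35.6% CACNAG, and 4.92% TGTTTAC. Across the 52 member regions the matching numbers were 9, 7, 12, and 3.

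With beta 1 left out, further *Notch2* regions had a peak in both delta lists and in neither remaining beta list. At 42.7 to 43.2 kb inside, the fold enrichment was 8.54 and 10.3 in delta 1 and 2, the highest of the delta lists within the introns, against 3.0 in alpha 1 and 1.80 in beta 1. A region at 115.2 to 115.9 kb was called in both alpha lists at 5.07 and 7.05, in both delta lists at 3.58 and 5.04, and in beta 1 at 1.80. The opposite pattern occurred upstream, where chr3:97998299-97998770 was called in all 3 beta lists (1.80, 4.84, and 3.85), in alpha 2 at 4.40, and in no delta list. The highest fold enrichment of any member peak, 20.1 in alpha 1, belonged to a narrow intronic region of 230 bases (chr3:98112766-98112995) that also reached 8.0 in alpha 2 and 12.1 in beta 1, was at 2.52 in delta 2, and was missing in beta 2, beta 3, and delta 1. The peaks of these 4 lists began at the same base, 98112766, and ended between 98112965 and 98112995. The reason for these shared edges was not tested.

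**Figure D2:**
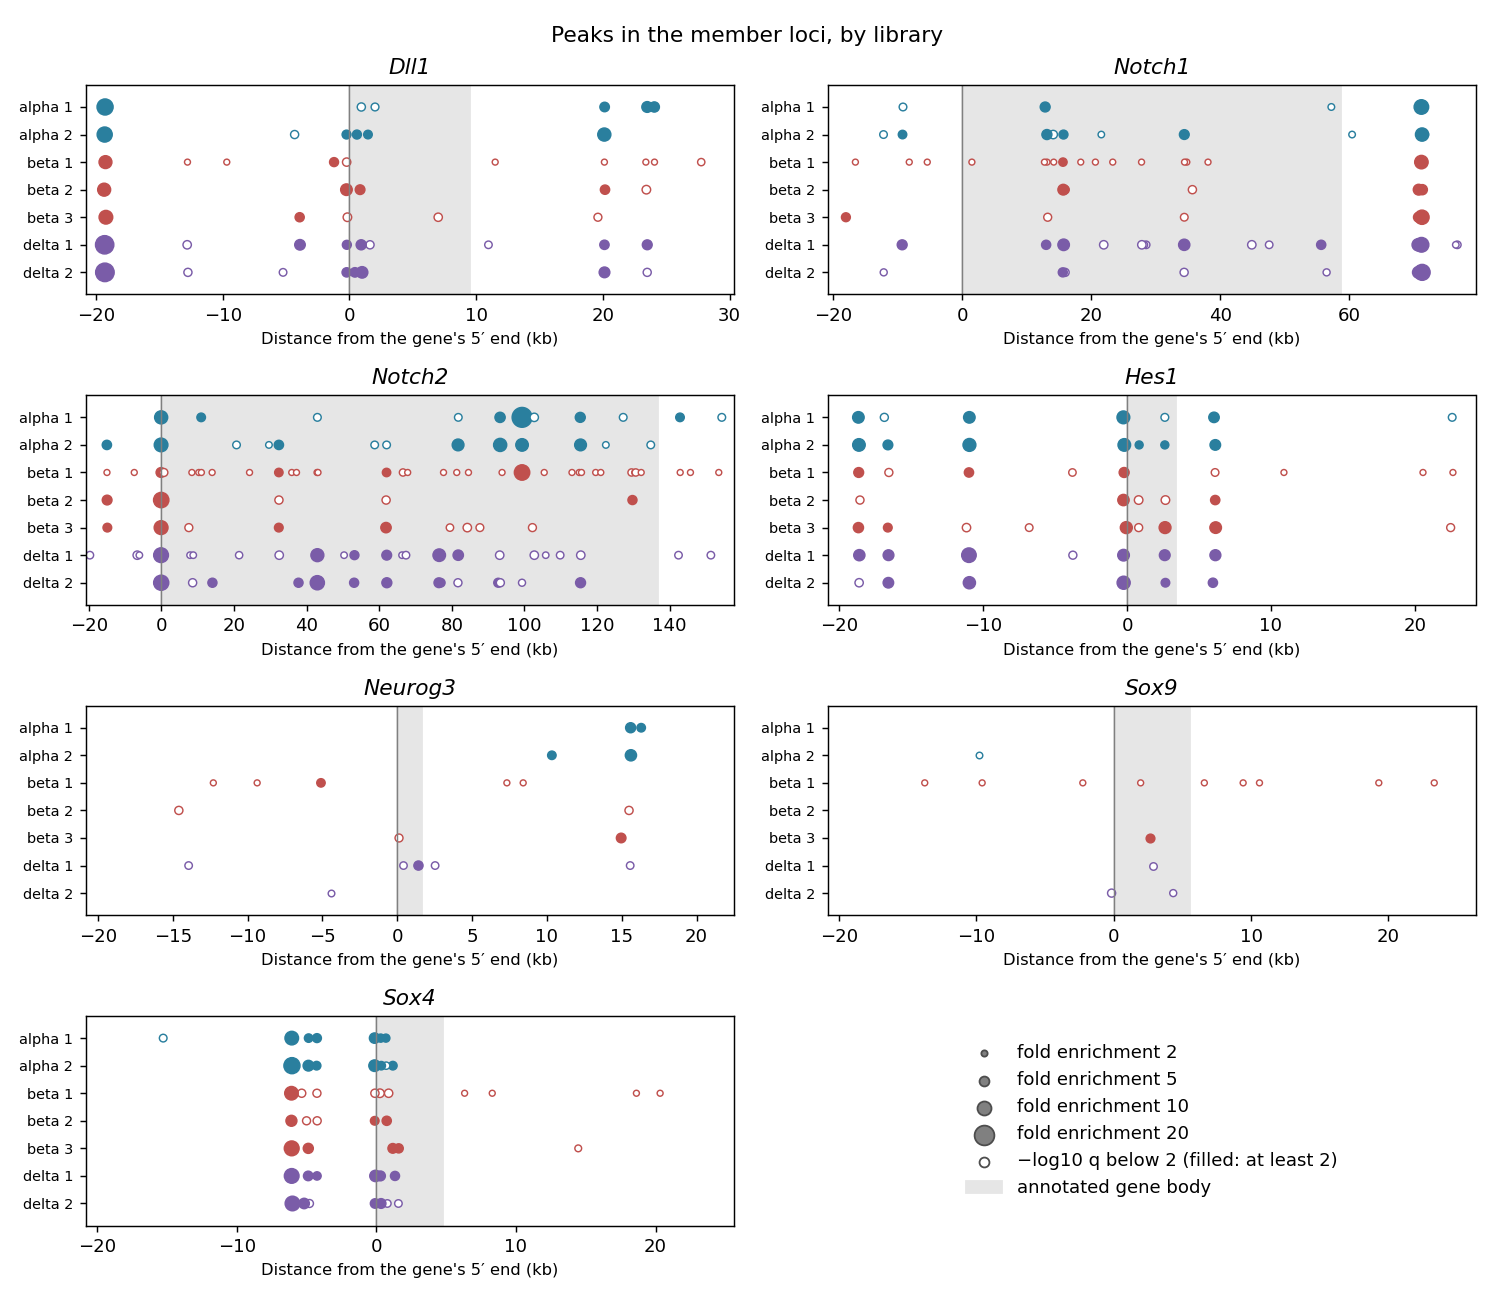
Peaks of the 7 member loci, with distance of the summit from the 5′ end of the gene in kb on the x axis and 1 row per library; circle area is proportional to fold enrichment, filled circles have a −log10 q of at least 2, and grey marks the gene body. *Sox4* and *Hes1* show columns of circles shared by nearly all libraries, *Notch2* introns are filled mainly in delta and alpha rows, and *Neurog3* and *Sox9* show scattered circles.

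*Hes1* (ENSMUSG00000022528.8, chr16:30064384-30067796, plus strand) encodes the bHLH repressor that Notch signalling induces. Its start-site peak had a fold enrichment of 8.33 and 8.09 in alpha 1 and 2, 5.06, 6.52, and 7.30 in beta 1, 2, and 3, and 6.89 and 8.74 in delta 1 and 2. By fold enrichment all beta values lay below both alpha values, and the delta values spanned the alpha range. The order was another by rank within the own list. The percentile by −log10 p was 93.9 and 94.0 in alpha, 97.2, 90.3, and 91.9 in beta, and 92.1 and 89.9 in delta lists. These ranks depend on the length and make-up of each list, so they do not decide the order of the cell types. The locus was among the densest in open regions, with 9 regions called in at least 2 libraries in 43.413 kb, or 2.07 per 10 kb, at percentile 99.6 of protein-coding loci, for which the median was 0.644. Without beta 1 it had 8, or 1.84 per 10 kb, at percentile 99.5.

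Besides the annotated 5′ end, a region 18.3 to 18.9 kb upstream (chr16:30045532-30046043) and a region 5.73 to 6.44 kb downstream of that end (chr16:30070110-30070821) were called in all 7 libraries. The upstream region had a fold enrichment of 6.76 and 8.02 in alpha, 4.92, 3.33, and 5.26 in beta, and 6.40 and 3.52 in delta lists. Both alpha values lay above all others in fold enrichment. By percentile beta 1 (97.3) was above both and delta 1 (85.8) above alpha 1 (85.6), but ranks from lists of such different make-up do not decide this. Regions at 10.8 to 11.3 kb and 16.5 to 17 kb upstream were missing in beta 2 alone, and the nearer of these reached 10.8 in delta 1. At least 2 beta lists and no delta list had a peak at chr16:30065074-30065334, directly before the coding start at 30065340, and at chr16:30086769-30087129. The former had 3.72 and 3.24 in beta 2 and 3 and 3.23 in alpha 2, and the latter, which alpha 1 also had at 3.0, rested on beta 1, without which beta 3 was the only beta list with it.

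*Neurog3* (ENSMUSG00000044312.4, chr10:62133090-62134763, plus strand) encodes the proendocrine bHLH factor. Within 1 kb of its 5′ end, beta 3 had a peak with a fold enrichment of 3.21 and delta 1 a peak of 2.82, and neither reached a −log10 q of 2. The other 5 libraries, both alpha lists among them, had none, and no cell type had the peak in 2 replicates. At the 3′ end of the gene delta 1 alone had a peak of 4.29 with a −log10 q of 2.98. Of the 16 regions of the locus, 15 were called in a single library, 5 of them in beta 1. The exception lies 15.3 to 15.8 kb from the 5′ end (chr10:62148371-62148869) and was called in alpha 1 and 2 at 5.15 and 6.41, in beta 2 at 3.39, and in delta 1 at 2.87. The 2 alpha peaks were the stronger ones of this region and the only ones past a −log10 q of 2. Close to it beta 3 had a separate peak (chr10:62147894-62148097) of 4.69, with a −log10 q of 3.55. With 0.240 regions per 10 kb, the locus ranked at percentile 13.4, and at 24.8 without beta 1.

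*Sox9* (ENSMUSG00000000567.5, chr11:112782224-112787760, plus strand) encodes the progenitor and duct factor and was the barest of the loci. A start-site peak was called in delta 2 alone, at a fold enrichment of 3.33 and a −log10 q of 1.93. None of its 14 regions was called in 2 libraries, and 9 of them were beta 1 peaks of 1.80. The only peak past a −log10 q of 2 was in the gene body in beta 3, at 3.91. A locus with no region called in at least 2 libraries is uncommon, since 4.64% of protein-coding loci had none (10% without beta 1).

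*Sox4* (ENSMUSG00000076431.4, chr13:28948919-28953713, minus strand) encodes a SoxC factor and, unlike *Sox9*, was called at its start in all 7 libraries. The start-site fold enrichment was 5.48 and 6.81 in alpha 1 and 2, 3.72, 4.33, and 4.78 in beta 1, 2, and 3, and 6.56 and 4.82 in delta 1 and 2. By fold enrichment all beta values lay below all alpha and delta values. By percentile within the list, beta 1 had the highest rank, 94.7, and beta 2 and 3, at 73.0 and 81.8, were above delta 2 at 63.5. These ranks depend on the lists, since 5.0% of beta 1 and 54.9% of delta 2 peaks reached a −log10 q of 2. They therefore do not decide the order of the cell types. In alpha lists and delta 1 the strongest peak was centred 63 to 124 bases upstream of the 5′ end. In beta lists and delta 2 it lay inside the gene, up to 1180 bases from the end. Directly at the 5′ end, the region chr13:28953596-28954005 was called in every library except beta 3.

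The strongest element of the *Sox4* locus was not the start. A region 5.82 to 6.28 kb upstream (chr13:28959533-28959996) was called in all 7 libraries with a −log10 q of at least 2 in each. Its fold enrichment was 9.43 and 13.2 in alpha 1 and 2, 9.31, 6.12, and 11.2 in beta 1, 2, and 3, and 11.0 and 10.9 in delta 1 and 2, so that all 3 cell types overlapped. It exceeded the start-site peak of the same library in all 7. A second region, 4.58 to 5.40 kb upstream, was also called in all 7 libraries, at 3.27 to 5.84. The 200 bases around the summit of the stronger element are printed, on the plus strand and with capitals for an E-box, because it was called in every library.

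Sox4 upstream region, chr13:28959657-28959856: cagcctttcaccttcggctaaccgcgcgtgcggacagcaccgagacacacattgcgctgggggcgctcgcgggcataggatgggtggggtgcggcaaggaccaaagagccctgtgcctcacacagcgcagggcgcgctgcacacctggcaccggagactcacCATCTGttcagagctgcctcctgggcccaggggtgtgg

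Of this window 67.0% is G or C, at percentile 93.5 of the 133685 windows, whose median was 48.0%. No start of an annotated protein-coding transcript lies within 1 kb of it.

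Over all members, 171 regions were found and 52 were called in at least 2 libraries, while 119 were called in a single library, 55 of these in beta 1. Regions called in all 7 libraries made up 9 of the 52, or 17.3%, against 13.3% of the 133698 regions of the genome called in at least 2 libraries. Without beta 1, 10 of 44, or 22.7%, were called in all remaining libraries, against 20.6%. Of these 9, 5 lay at a gene start, including those of *Fam120b* and *Sec16a*, and 4 between protein-coding genes, 2 at *Hes1* and 2 at *Sox4*. Alpha cells had 24 open regions, beta cells 25, and delta cells 29, or 46.2%, 48.1%, and 55.8%, against 34%, 42.1%, and 33.6% of all regions. Without beta 1, 44 member regions were called in at least 2 libraries, and the shares open in alpha, beta, and delta cells were 54.5%, 34.1%, and 65.9%, against 50.2%, 29.7%, and 49.5%.

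Selective regions were counted by presence, which here means 2 or more replicates of a cell type with a peak and not a single replicate of the compared cell type. Alpha against beta cells gave 3 member regions, or 5.77%, where the genome gave 5.41%. Delta against beta cells gave 4, or 7.69%, against 4.85% of all regions, and all 4 are the *Notch2* introns described. In the opposite direction, beta against alpha cells gave 0 of 52 where 14.8% of all regions were called, and beta against delta cells gave 3, or 5.77%, against 13.2%. Delta against alpha cells gave 4 against a background of 5.13%, and alpha against delta cells gave 0 against 5.38%. Without beta 1 the background moved along with the member counts. Alpha against beta cells then gave 6 of 44, or 13.6%, against 15.9% of all regions, and delta against beta cells 9, or 20.5%, against 13.6%. Beta against alpha cells gave 0 against 3.95%, and beta against delta cells 2, or 4.55%, against 2.85%. Delta against alpha cells gave 4, or 9.09%, against 7.56%, and alpha against delta cells 0 against 7.93%.

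The number of peaks in each locus per 100000 peaks of the same list was tested between cell types for every protein-coding gene, by an exact permutation test. Its statistic was the sum of squares between groups, recomputed for each of 210 ways to assign the libraries. *Notch2* had 8.39 and 12.5 in alpha 1 and 2, 6.75, 5.49, and 8.66 in beta 1, 2, and 3, and 14.6 and 18.5 in delta 1 and 2. The delta values lay above all others and the alpha and beta values overlapped. The means were 10.4 ± 2.91 (SD, n = 2), 6.97 ± 1.60 (SD, n = 3), and 16.5 ± 2.76 (SD, n = 2) in the same order. The exact permutation p was 0.0381 and the Benjamini-Hochberg adjusted p over all 21911 genes was 1, where the smallest p of the design is 0.00952. Among all genes 4.42% had a p of 0.05 or below, so 1 of 7 members is not a result about the members. With peaks past a −log10 q of 2 alone, the exact permutation p of *Notch2* was 0.352, and without delta 2 it was 0.117.

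The other members did not pass 0.05. The exact permutation p was 0.143 for *Dll1*, 0.210 for *Notch1*, 0.486 for *Sox9*, 0.648 for *Sox4*, 0.781 for *Neurog3*, and 0.952 for *Hes1*, and each adjusted p was 1. *Dll1* had 4.57 and 5.36 in alpha, 1.93, 5.49, and 4.81 in beta, and 5.69 and 10.5 in delta lists, so the delta values were the highest here. *Notch1* had 3.05 and 8.93 in alpha, 3.09, 5.49, and 4.81 in beta, and 9.49 and 9.23 in delta lists, and there too both delta values were above the others. This did not hold with only peaks past a −log10 q of 2, per 100000 of these. *Notch1* then had 7.20 in delta 2 against 10.2 in alpha 2, and *Dll1* had 12.0 in delta 2 against 12.5 in beta 2. Delta 1 was still the highest at both, at 14.9 and 12.8. *Hes1* ran from 1.74 in beta 1 to 8.66 in beta 3, and thus varied more among beta replicates than between the cell type means of 5.79, 5.29, and 6.17 for alpha, beta, and delta cells.

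**Figure D3:**
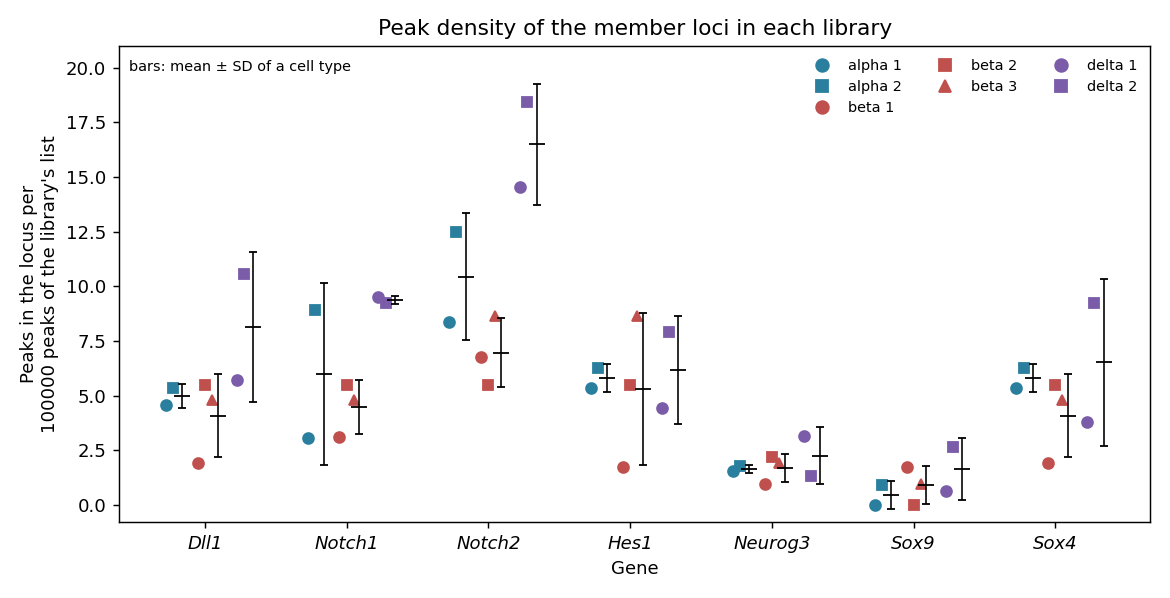
Peaks in each member locus per 100000 peaks of the list, on a linear axis, with 1 point per library and bars for the mean ± SD of the cell type (2 alpha, 3 beta, and 2 delta libraries). The delta points of *Notch2*, 14.6 and 18.5, are above all other libraries, and the cell types overlap at *Hes1*, *Neurog3*, *Sox9*, and *Sox4*.

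The duct genes *Cftr*, *Spp1*, and *Muc1* had their highest peaks at the annotated 5′ end in delta lists, *Muc1* in delta 2 only. This is given here because *Notch2*, *Hes1*, and *Sox9* are also known from ducts. Of the 5 duct markers (*Krt19*, *Krt7*, *Spp1*, *Cftr*, and *Muc1*), 2 had a start-site peak in delta 1 and 3 in delta 2, against 2 and 1 in alpha 1 and 2 and 3, 1, and 1 in beta 1, 2, and 3. Past a −log10 q of 2 the numbers were 2 and 3 in delta lists and 0 in the other 5. The summed percentiles of these peaks were 157 and 185 in delta, 54.2 and 36.6 in alpha, and 107, 41.7, and 19.7 in beta lists. These sums depend on the make-up of each list. The fold enrichment of *Cftr* was 5.70 and 5.22 in delta 1 and 2 and 2.25 to 3.39 in the other lists. *Spp1* reached 4.30 and 5.74 in delta 1 and 2 and 3.0 in alpha 1, with no peak there in the others, although alpha 2 had 4.79 at another start. *Muc1* was called in delta 2 at 4.32 and in beta 1 at 1.79, and not in delta 1. The keratin genes did not share this pattern. *Krt7* was called in beta 1 alone at 1.79, although at another transcript start it was highest in alpha 1, at 9.62. *Krt19*, the defining keratin of ducts, had no peak at any transcript start in any library. The sort on mCherry and YFP is meant to leave duct cells out. The part of duct cells in the *Notch2* values was not tested.

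Markers of other cell types that a sort can carry along were called at the annotated end in 0 to 5 libraries. The acinar enzymes *Cpa1*, *Cpb1*, and *Cela2a*, the endothelial genes *Cdh5* and *Tie1*, the immune genes *Ptprc* and *Itgam*, and the mesenchymal gene *Col3a1* had none there in any library. The mesenchymal gene *Pdgfrb* had a peak in 5, the highest 4.20 in delta 2, and *Col1a1* and the acinar gene *Prss2* in 3 each. The endothelial gene *Kdr* was called in delta 1 alone, at 5.02. By library, 0 to 2 of 6 acinar, 0 to 1 of 4 endothelial, 0 to 2 of 4 immune, and 0 to 3 of 4 mesenchymal markers were called. With every transcript start counted, the ranges were 0 to 3, 0 to 1, 0 to 3, and 0 to 3, and *Ptprc* then had a peak in 5 libraries, at 1.80 to 3.28.

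Of 32 further Notch pathway genes, 17 or 53.1% had a start-site peak in all 7 libraries, against 41.5% of all genes. In at least 2 replicates of alpha, beta, and delta cells 22, 24, and 22 were called, or 68.8%, 75%, and 68.8%, against 56.8%, 56.1%, and 54.1% of all genes. Among the ligands, *Jag1* was called in all 7 libraries past a −log10 q of 2 and with a fold enrichment of 6.58 to 11.0, and *Jag2* in 6. Of the 15 genes for ligand and receptor processing, 10 were called in all 7, among them those for the proteases Adam10 and Adam17 and for the inhibitor Numb. Of the 6 nuclear partners, *Maml1*, *Ep300*, and *Spen* were called in all 7, and *Rbpj* in none at its annotated end but in all 7 at another transcript start. Of the 5 further target genes, *Hey1*, *Hey2*, and *Nrarp* were called in all 7. *Hey2* lay between 16.5 in beta 1 and 26.2 in delta 2, each value above that of *Hes1* in the same library.

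**Figure D4:**
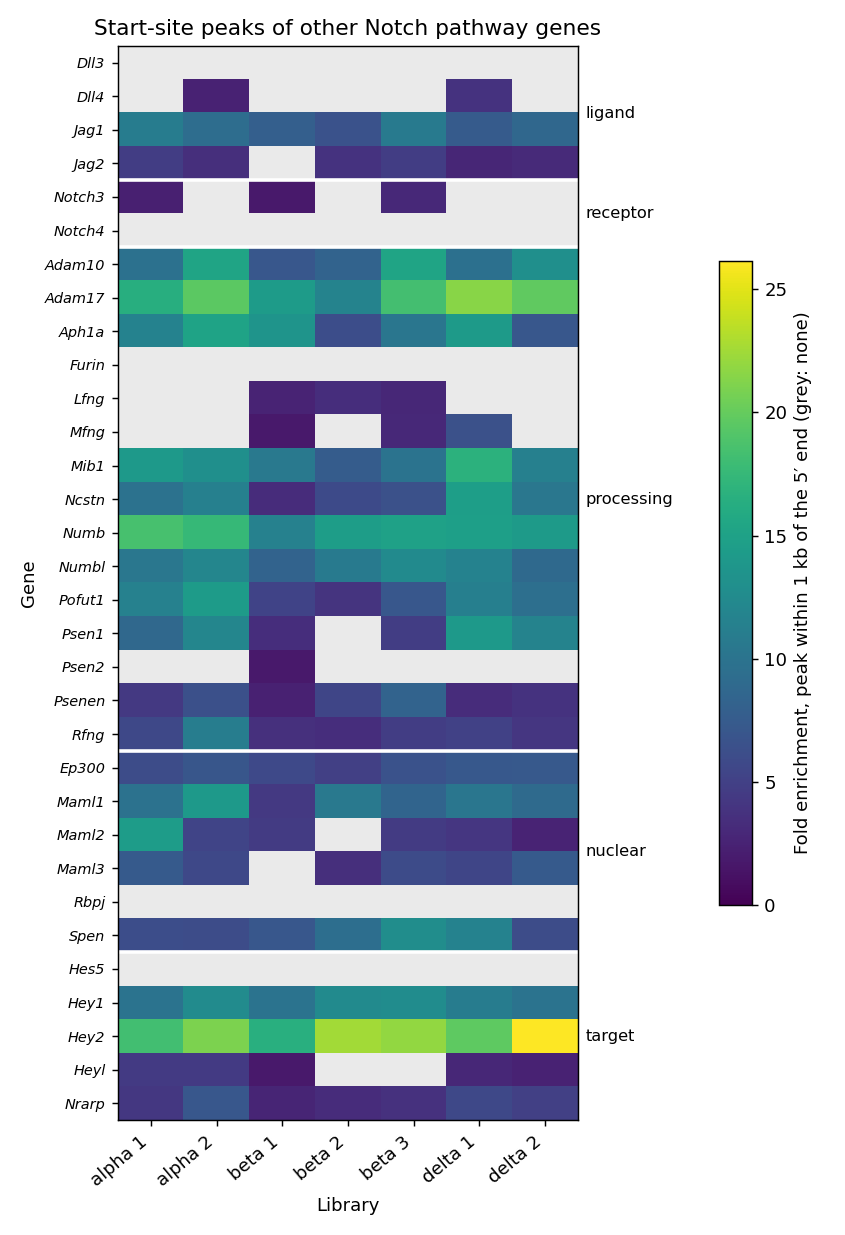
Fold enrichment (colour) of the strongest peak within 1 kb of the 5′ end for 32 further Notch pathway genes in rows, grouped by role, and 7 libraries in columns; grey means no peak. *Hey2*, *Adam17*, and *Numb* are high in all libraries, whereas *Notch3*, *Lfng*, and *Mfng* have peaks in 3 libraries each, all below 4 except *Mfng* in delta 1, at 6.45.

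The pathway genes without a call in any library at the annotated end were *Dll3*, *Notch4*, *Furin*, *Rbpj*, and *Hes5*, and of these only *Hes5* had no peak at another transcript start either. The receptor gene *Notch3*, by contrast, was called in alpha 1, beta 1, and beta 3, at 2.25, 1.80, and 3.03. Of the fringe genes, whose products modify Notch with sugars, *Rfng* was called in all 7 libraries, and *Lfng* and *Mfng* met the presence rule at their annotated ends. *Lfng* was called in beta 1, 2, and 3, at 2.63, 3.39, and 2.90, and in no alpha or delta list. At another transcript start of *Lfng*, however, alpha 2 and delta 1 had peaks of 3.67 and 2.87. *Mfng* was called in beta 1 and 3, at 1.80 and 2.99, in delta 1 at 6.45, and in no alpha list, although alpha 2 had 2.90 at another start. No peak of *Lfng* reached a −log10 q of 2, and without beta 1 only *Lfng* met the rule for beta cells. Genes with a start-site peak in at least 2 beta lists made up 2.38% of all genes when absent from alpha cells (2 of the 32) and 2.6% when absent from delta cells (again 2, *Lfng* and *Notch3*). No pathway gene was called in the other directions, for which the background was 1.29% for alpha without beta, 1.2% for alpha without delta, 0.543% for delta without alpha, and 0.808% for delta without beta cells.

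Many genes of the endocrine program downstream of *Neurog3* were called in more libraries than *Neurog3*, which had 2. Of 13 such genes, 8 or 61.5% had a start-site peak in all 7 libraries, against 41.5% of all genes, namely *Neurod1*, *Insm1*, *Nkx2-2*, *Rfx6*, *Mnx1*, *Isl1*, *Hes6*, and *Runx1t1*. *Pax4*, a target of Neurog3 that is likewise active in progenitors, had none, and *Fev*, *St18*, and *Myt1* had 2, 2, and 1. With every transcript start counted, *St18* had a peak in all 7 libraries, *Myt1* in 5, *Fev* in 2, and *Pax4* in 1. Of 11 pancreatic progenitor genes, 6 or 54.5% were called in all 7 libraries. *Ptf1a* and *Gata4* were called at the annotated end in both alpha lists, at fold enrichments of 2.17 and 2.20 and of 3.0 and 2.93, in no beta or delta list, and never with a −log10 q of 2. These 2 of 11 genes stand beside 1.29% of all genes for alpha without beta and 1.2% for alpha without delta cells. At another start of *Gata4*, both delta lists had peaks too, at 4.30 and 5.0, as did beta 1 at 1.80, so that only *Ptf1a* kept the contrast. Of the other Sox genes of the C and E groups, *Sox12* was called in all 7 libraries, *Sox11* in 5, *Sox8* in 4, and *Sox10* in 0.

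Among the protein-coding genes whose start-site percentiles followed each member best over the 7 libraries were *Mars* and *Vps26c* for *Hes1* (Pearson r = 0.993 and 0.984), *Rasgrf1* for *Notch2* (0.975), *Gbp4* and *Gbp8* for *Dll1* (0.963 each), and *Atp5a1* and *Haus1* for *Sox4* (0.999 each). For *Neurog3*, *Lilrb4a* is given (0.999), which rests on the 2 libraries with a peak. For *Sox9*, 73 genes tied at r = 1 because a peak in delta 2 alone fixes the pattern, and *Notch1* had no values at its annotated end. These libraries share the differences in list length, so the correlations describe the lists and carry no test.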

How the data were processed

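Single-end 50 bp ATAC-Seq reads of sorted alpha, beta, and delta cells had been processed by the authors with FastQC, Trimmomatic, Bowtie2, Picard, and MACS2 on mm10 (versions not given in the sources used here), with peaks called in each library on its own. The deposited fold enrichment is the ratio of signal to local background at a summit. The −log10 p and −log10 q values are those that the authors obtained from MACS2, and the deposited score is 10 times the −log10 p. Repeated intervals were counted once with their highest −log10 p, and percentiles rank the peaks of a list by that value. Genes came from GENCODE vM21 and sequences from RefSeq GRCm38.p6, where 6 of 6 member promoters equalled the genome.

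Open means a peak in at least 2 replicates. Lists hold no reads, so the differential test of the study could not be made. The exact permutation test used all 7 libraries without a covariate, with Benjamini-Hochberg adjustment over 21911 protein-coding genes. Replicates are pooled mice per library, and p-values measure the spread between these libraries, which the test treats as independent although they can share animals. Members, gene lists, and tests were chosen with earlier results of these data known. Named were the members, list genes open in 1 cell type and called in no library of another, the 2 genes of highest Pearson r with each member, and regions called in all 7 libraries, selective, or at a start, and all other regions and genes named were chosen after their values were seen. Some genes of the lists and of the highest Pearson r are not reported here, and the list counts leave them out. The gene lists covered ligands, receptors, processing, nuclear partners, and targets of Notch, the endocrine program, pancreatic progenitors, Sox groups C and E, and markers of alpha, beta, delta, acinar, duct, endothelial, immune, and mesenchymal cells.

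As alternatives, peaks were limited to a −log10 q of 2 or more or to the 50000 of lowest p in each list, a library had to cover a fraction of 0.5 of a region, flanks were set to 10 and 50 kb, the start window to 3 kb or to any transcript start, densities were taken over covered bases or permuted within replicate number, and single libraries were omitted. Steps were tested on simulated lists. Python 3.11.15, numpy 2.4.6, pandas 2.3.3, and matplotlib 3.10.9 were used.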

Additional observations from a re-analysis of the deposited data

How the results depend on the processing

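The 52 regions called in at least 2 libraries became 84 with a flank of 50 kb and 44 to 51 without any library. Open beta regions, 25 in the deposited lists, numbered 12 at a −log10 q of at least 2, 16 with a flank of 10 kb, and 38 with 50 kb. With each library left out in turn, open regions ran from 24 to 46 in alpha, 15 to 25 in beta, and 29 to 65 in delta cells. Where a single list of a cell type remained, its peaks alone counted, which gave the highest alpha value without alpha 1 and the highest delta value without delta 2, and the lowest beta value came without beta 1.

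Selective regions are few and moved most. The number of member regions also changed, to 35 at a −log10 q of at least 2, 36 with 50000 peaks per list, and 49 with the coverage rule. It was 39 with a flank of 10 kb and 84 with 50 kb. Shares of all regions, for open and for selective regions, are given only for the deposited lists and without beta 1. Under the other settings the counts therefore say nothing about the members against the genome. At a −log10 q of at least 2 there were 6 for alpha without beta, 1 for beta without alpha, and 3 for alpha without delta cells. With 50000 peaks per list, beta without alpha gave 1 and alpha without delta 3. Coverage of at least 0.5 of a region gave 6 for alpha without beta and 1 for alpha without delta. A flank of 10 kb gave 1 for beta without delta, and a flank of 50 kb gave 6 for alpha without beta, 1 for beta without alpha, 1 for alpha without delta, and 5 for beta without delta cells. Leaving out libraries gave ranges of 3 to 17 for alpha without beta, 0 to 7 for beta without alpha, 0 to 14 for alpha without delta, 4 to 33 for delta without alpha, 1 to 6 for beta without delta, and 4 to 33 for delta without beta cells. With a single alpha or delta list left, that list alone stood for its cell type, so the rule itself changed. The highest values all came from such settings, 17 and 14 without alpha 1, 33 without delta 2, 7 without alpha 2, and 6 without delta 1.

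Start-site calls of the members, 4 per cell type, ran from 3 to 5. They were 3 in alpha and beta cells at a −log10 q of at least 2, 3 in alpha cells with 50000 peaks per list, 5 in beta and delta cells with the 3 kb window, 5 in alpha and beta cells at any transcript start, and 5 in delta cells with a single delta list left, and 4 otherwise. The number of members with an exact permutation p of 0.05 or below for locus density was 0 under both stricter peak thresholds (−log10 q of 2 or more, or 50000 peaks a list), where *Notch2* had 0.352 and 0.114, and 0 to 2 with libraries left out. *Notch2* had 0.117 without delta 2, and *Notch1* had 0.0333 without alpha 2, where the smallest possible exact permutation p was 0.0167. Without a beta library no p below 0.0667 was possible, so those settings say nothing about this count. With the replicate block, *Notch2* had an exact permutation p of 0.111, with 0.0556 as the smallest possible, so no call could be made under it. No source used here says that same-numbered libraries come from the same pool of mice, and the correlations of their deviations ran from -0.0228 to 0.0857 over 6 pairs.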
